A study of Mus musculus with 15 samples.

Results

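The genes described here encode the nuclear-coded subunits of respiratory complexes II, III and IV and of ATP synthase (complex V), with cytochrome c and the assembly factors that share their gene names. They were chosen by symbol alone, as the genes named Sdha to Sdhd, Sdhaf, Uqc, Cox followed by a digit or Atp5, together with *Cyc1* and *Cycs*. This gave 62 of the 12529 genes listed for mouse quadriceps, and all 62 passed the minimum mean of 0.5 FPKM that left 11674 genes for testing. FPKM are fragments scaled to the length of the transcript and the size of the library. By role they comprised 4 subunits of complex II, 9 of complex III, cytochrome c, 14 of complex IV, the complex III to IV linking factor *Cox7a2l*, 5 subunits of the catalytic F1 part of ATP synthase, 10 of its membrane Fo part and stalks, and 18 assembly and related factors.

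RNA-seq libraries came from quadriceps of mice in 3 groups of 5, with the strain given as C57BL/6 in the labels and, for wild types, as C57BL/6J in the study's methods. Controls were wild-type and sedentary. Exercised mice (Ex) were wild-type and had free access to a running wheel for 4 weeks from 8 weeks of age, and they were harvested hours after their last bout. Transgenic mice (mTg) carried a muscle-specific *Ppargc1a* transgene, PGC1a Tg(+) in the labels, and were sedentary. All mice were male per the study's methods. The transgene was driven by the muscle creatine kinase promoter, which is known to be active in striated muscle, and the age of the mTg mice was not given in the sources used here. Per the methods, mTg mice were studied beside wild-type littermates, while the mice for wheel running and their sedentary cage controls were bought. The single control group served both comparisons, and which of these mice it holds was not stated. Nothing states that each library is a separate animal, so p-values measure the spread between these libraries, which may in part be technical.

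Complexes II, III and IV pass electrons from succinate and reduced quinone through cytochrome c to oxygen, and complexes III and IV pump protons that ATP synthase uses to make ATP. Complex II is coded wholly in the nucleus, whereas complexes III, IV and ATP synthase also hold subunits coded in mitochondrial DNA, which were not analysed here. PGC1α, the product of *Ppargc1a*, is a coactivator known in muscle for driving mitochondrial gene expression through partners that include the estrogen-related receptors (ERR), NRF1 and the ETS factor GABP.

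The transgene was visible in the libraries. *Ppargc1a* lay between 50.1 and 56.8 FPKM in mTg, between 5.06 and 12.5 in controls and between 4.87 and 7.34 in Ex. Per library, between 11475817 and 16917490 reads fell on listed genes, as worked back from the FPKM, and the lowest total was in mTg. Myofiber markers summed to between 63102 and 71755 FPKM in controls, and the heart myosin *Myh6* lay between 0.363 and 0.754 FPKM in all 15 libraries. The top 10 genes took 32.9% of the summed FPKM of listed genes in a control library on average, 29.4% for Ex and 23.6% for mTg. That sum leaves out genes not listed, among them mitochondrially encoded genes such as *mt-Co1*, which were not found by symbol. The 62 genes together made up 4.48% ± 0.128 of a control library, 5.06% ± 0.136 of an Ex library and 9.35% ± 0.384 of an mTg library (SD, n = 5). The 3 groups did not overlap in this share. On the FPKM scale of the main tests, the sum of the 62 genes overlapped between controls (19066 to 22765) and Ex (20537 to 22970).

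Promoter sequence is shown first for 6 genes that differed in their response in mTg, since PGC1α is known to act through factors that bind there. Of the 62 genes, 50 matched 55 promoters in RefSeq (GRCm38.p6), taken from 250 bases before to 50 bases after each gene start. Both strands were searched for AAGGTCA (the ERR core letters), for GCGCA and GCGC with 1 base between them (NRF1) and for CCGGAAG (ETS). The ERR letters also occur in sites of other nuclear receptors, and a match is not a bound site. The ERR letters were in 10.9% of the 55 promoters and in 4.72% of all 32851 promoters, the NRF1 letters in 23.6% and 4.60%, and the ETS letters in 38.2% and 8.86%. The set of all promoters was not limited to genes expressed in muscle or matched for base content, and these differences were not tested. The stretches below lie before the RefSeq gene start on the minus strand, written 5′ to 3′, with a match in capitals. For *Atp5g2* the GENCODE annotation has another start, and the stretch lies inside its GENCODE span of chr15:102662864-102672352. They show the 3 genes of the ATP synthase c subunit. Of these, 2 had the largest changes of all 62 genes and 1 was not called. Then follow *Sdha* and *Sdhd*, with log2 fold changes of 0.98 and 1.13 in mTg against a median of 0.94 over the 62 genes. *Uqcc2*, which was not called, comes last.
Atp5g3, chr2:73911327-73911446, ERR letters on the opposite strand: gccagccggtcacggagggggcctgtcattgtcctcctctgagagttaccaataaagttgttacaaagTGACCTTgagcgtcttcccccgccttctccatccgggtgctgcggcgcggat
Atp5g1, chr11:96075671-96075751, none of the 3 motifs: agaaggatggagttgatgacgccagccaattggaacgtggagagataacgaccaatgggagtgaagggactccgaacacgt
Atp5g2, chr15:102671070-102671099, NRF1 letters: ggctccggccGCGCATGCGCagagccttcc
Sdha, chr13:74350319-74350348, NRF1 letters: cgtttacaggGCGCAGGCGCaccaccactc
Sdhd, chr9:50603850-50603909, ETS letters on the opposite strand: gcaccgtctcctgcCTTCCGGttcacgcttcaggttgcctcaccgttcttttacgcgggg
Uqcc2, chr17:27133917-27134011, NRF1 letters: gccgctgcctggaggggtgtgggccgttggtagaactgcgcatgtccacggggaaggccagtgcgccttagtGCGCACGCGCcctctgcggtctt
The NRF1 letters stood before the RefSeq starts of *Uqcc2* and *Atp5g2*, neither of which was called in mTg. They also stood before *Sdha* and *Sdhd*, which were called, and *Atp5g1* rose with none of the 3 motifs in its window. Matches outside the stretches printed were the NRF1 letters at 2 more places in *Sdha*, at 1 in *Sdhd* and at 1 in *Atp5g3*, and the ERR letters after the start of *Sdhd*. Beyond these 6 genes, the NRF1 letters were in promoters of 13 of the 50 genes. Of those, *Atp5g2*, *Uqcc2* and *Sdhaf3* were not called in mTg, and all others were called higher. Whether a match goes with the change in mTg was not tested.

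Levels differed widely among these genes, as FPKM, which corrects for transcript length, shows. The catalytic β subunit *Atp5b* was the most abundant in every group (1747 ± 71.2 FPKM in controls, SD, n = 5), followed in controls by the muscle isoform *Cox6a2* (1119 ± 68.0) and the α subunit *Atp5a1* (1106 ± 19.0). Most other subunits lay between *Cox7a2* at 191 ± 19.7 and *Cox8b* at 832 ± 77.5. Lower levels were seen for the isoforms *Cox4i2*, *Cox6a1*, *Cox8a* and *Atp5g2*, for cytochrome c at 32.3 ± 2.89 and for *Atp5l* (subunit g) at 1.88 ± 0.766. *Atp5l* rested on 9 to 25 reads per library and has 2 named pseudogenes in GENCODE M21, and the sources do not say how reads that match several places were counted. Assembly and related factors ranged from *Cox16* at 1.39 ± 0.405 to *Uqcc2* at 242 ± 18.3 FPKM in controls, the latter above the subunit *Cox7a2*.

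**Figure D1:**
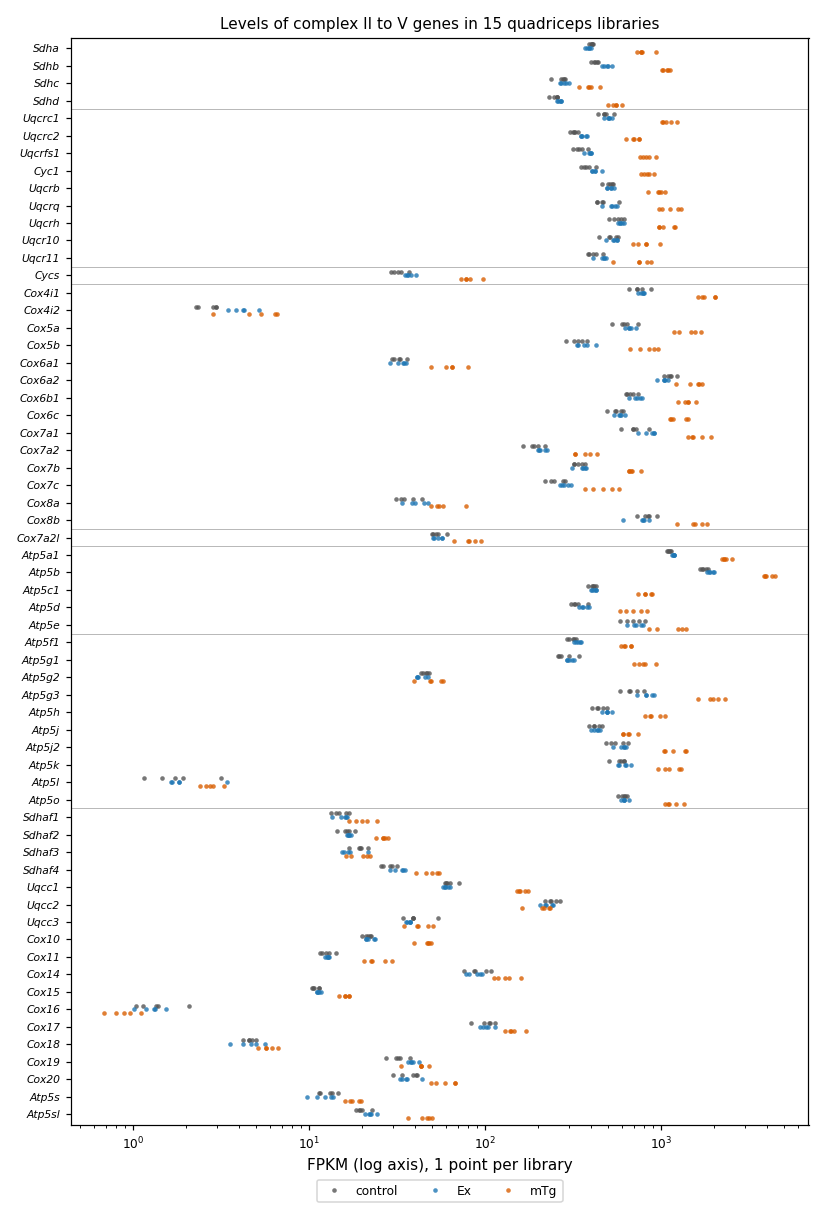
FPKM of each of the 62 genes (rows, grouped by complex and separated by grey lines) in each of 15 libraries on a log axis, with controls grey, Ex blue and mTg orange. Most mTg points stand apart to the right, control and Ex points mix, and *Atp5b* is highest and *Cox16* lowest.

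The first comparison asked how far these genes differed in muscle that overexpresses *Ppargc1a*. Against controls, 57 of the 62 genes were higher in mTg and 1 was lower at an adjusted p under 0.05, where 22.3% of all genes tested were higher and 23.1% lower. The median log2 fold change was 0.94 over the 62 genes and −0.02 over all genes tested. In 53 of the 62 every mTg library stood above every control library, which held for 16.3% of all genes, and in none was every mTg library below (16% of all genes). All 27 subunits of complexes II to IV, cytochrome c, *Cox7a2l* and 14 of the 15 ATP synthase subunits rose, with medians of 1.06 for complex II, 1.13 for complex III, 0.98 for complex IV, 1.05 for F1 and 0.99 for Fo and stalks. The 18 assembly and related factors had a lower median of 0.51, with 14 higher, 1 lower and 3 not called. The tissue was whole muscle, where fewer cells of a type and less RNA per cell cannot be told apart.

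In complex II, which oxidizes succinate and feeds electrons to quinone, the iron-sulfur subunit *Sdhb* (chr4:140961203-140979193) rose most. It was at 428, 401, 418, 438 and 416 FPKM in the controls and at 1120.3, 1006, 1092, 1019 and 1079 in mTg. Even the lowest mTg library was far above the highest control, and the log2 fold change was 1.34 ± 0.06 (SE, adjusted p = 3.2e-09). *Sdha*, the flavoprotein, was at 405, 389, 398, 407 and 402 FPKM in controls and at 931, 770.2, 773, 729 and 770.1 in mTg, a change of 0.98 ± 0.07 (adjusted p = 1.46e-07). The membrane anchor *Sdhd* read 255, 231, 246, 254 and 257 FPKM in controls against 552, 551, 600.0, 530.2 and 497 in mTg (1.13 ± 0.06, adjusted p = 2.45e-08). The other anchor, *Sdhc*, moved least of the 4, from 268, 237, 279.8, 277 and 285 FPKM in controls to 339.7, 383, 449, 396 and 386 in mTg. Its groups did not overlap either, but its log2 fold change of 0.53 ± 0.08 (adjusted p = 0.00012) had a 95% interval of 0.36 to 0.70, below the intervals of *Sdha* (0.83 to 1.13), *Sdhd* (0.99 to 1.27) and *Sdhb* (1.21 to 1.46). A difference between subunits was not itself tested.

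Complex III, the cytochrome bc1 complex, rose in all 9 subunits, by 0.65 to 1.26 on the log2 scale. The Rieske iron-sulfur protein *Uqcrfs1* was at 339.6, 317, 331, 354 and 383 FPKM in controls and at 813, 852, 928, 786 and 759 in mTg (1.26 ± 0.07, adjusted p = 3.0e-08). Small subunit *Uqcrq* reached the same log2 value from 458, 431, 431, 464 and 571 FPKM to 1247, 964, 1301, 1015 and 1117 (1.26 ± 0.10). Neither gene had a control library near any mTg library, although control replicate 5 was the highest control for both. Cytochrome c1, *Cyc1*, which hands electrons to cytochrome c, went from 372, 348, 365, 388 and 423 FPKM to 824, 769, 914, 854 and 795 (1.13 ± 0.07, adjusted p = 5.7e-08). The core protein *Uqcrc1* was at 470.0, 438, 469.9, 486 and 537 FPKM in controls and at 1222, 1015, 1131, 1064 and 1020.0 in mTg (1.18 ± 0.07). The other core protein, *Uqcrc2*, rose by 1.13 ± 0.06 to 630.2, 749.7, 745, 688 and 700.5 FPKM, from controls of 302 to 337. At the lower end, small subunit *Uqcr10* was at 508, 444, 504, 565 and 552 FPKM in controls and at 819.5, 693, 979, 821 and 733 in mTg (0.65 ± 0.10, adjusted p = 0.00012). *Uqcr11* followed at 0.83 ± 0.12, from 407, 384, 388, 425 and 469 FPKM to 827, 532, 877, 750.0 and 748. Replicate 2 was the lowest mTg library for both of these small subunits, and still above every control.

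*Cycs*, the mobile carrier cytochrome c, was at 31.8, 29.3, 30.4, 33.4 and 36.7 FPKM in controls and at 81.8, 77.1, 96.4, 78.0 and 72.7 in mTg. The groups were far apart, with a log2 fold change of 1.30 ± 0.08 (adjusted p = 6.5e-08). The annotation names 2 pseudogenes of *Cycs*, with which it could share reads.

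In complex IV, cytochrome c oxidase, which reduces oxygen, the 14 nuclear subunits rose by 0.44 to 1.30. *Cox5b*, the zinc-binding subunit on the matrix side, led with 354, 319, 287, 335 and 377 FPKM in controls and 955, 850.4, 907, 666 and 756 in mTg (1.30 ± 0.10, adjusted p = 3.95e-07). *Cox4i1*, the common form of subunit 4, stood at 726, 658, 729.9, 780.1 and 869 FPKM in controls and 2023, 1611, 2024, 1742 and 1696 in mTg (1.27 ± 0.09). *Cox5a*, its partner on the matrix side, was at 613, 528, 594, 641 and 735 FPKM in controls and 1676, 1468, 1547, 1255 and 1183 in mTg (1.19 ± 0.11). No mTg library of these 3 genes came as low as any control. The heart and muscle isoform *Cox6a2* changed least, from 1087, 1123, 1128, 1222 and 1037 FPKM in controls to 1638, 1217, 1699, 1463 and 1624 in mTg. Its mTg replicate 2 lay inside the control range, and the change was 0.44 ± 0.09 (adjusted p = 0.0016). Subunits 6a, 7a and 8 have a form of striated muscle and a common form, and both forms rose in each pair. The common form *Cox6a1* was at 32.6, 36.0, 30.2, 32.3 and 29.6 FPKM in controls, 28.8, 35.2, 34.1, 31.8 and 34.6 in Ex and 60.1, 49.1, 80.0, 64.7 and 65.0 in mTg (0.95 ± 0.11 in mTg). For subunit 7a the muscle form *Cox7a1* was at 686, 590.2, 688, 722 and 855 FPKM in controls, 907, 903, 823, 737 and 885 in Ex and 1699, 1419, 1909, 1489.7 and 1516 in mTg (1.18 ± 0.10). In both genes mTg stood above the other groups, and Ex overlapped controls.

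*Cox7a2*, the common form of 7a, was at 189.6, 164, 184, 199 and 217 FPKM in controls, 200.4, 224, 204, 201 and 219 in Ex and 392, 324, 430.2, 369 and 323 in mTg (0.94 ± 0.10). The muscle form *Cox8b* read 838, 724, 808, 852 and 939 FPKM in controls, 798, 787, 777, 607 and 847 in Ex and 1822, 1227, 1697, 1519 and 1545 in mTg (0.90 ± 0.10). Its common partner *Cox8a* was at 33.4, 34.4, 31.2, 38.7 and 43.6 FPKM in controls, 33.6, 38.5, 47.2, 39.8 and 44.8 in Ex and 54.8, 57.4, 77.8, 49.4 and 52.8 in mTg (0.66 ± 0.12). All mTg libraries of the 3 genes exceeded all controls. *Cox6b1* and *Cox7b*, whose testis partners were not analysed here, rose by 1.06 ± 0.08 and 1.01 ± 0.07, from 627 to 739 FPKM in controls to 1241 to 1575 in mTg for *Cox6b1* and from 319 to 366 to 651 to 768 for *Cox7b*.

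*Cox7a2l*, known as a factor that can link complexes III and IV, was at 52.7, 49.8, 53.5, 50.7 and 60.5 FPKM in controls. In mTg it was at 93.9, 66.7, 87.6, 79.8 and 80.7 (0.60 ± 0.09, adjusted p = 0.00011), with no overlap. Its protein and supercomplexes were not measured here.

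ATP synthase held both the largest rise of the 62 genes and the 1 subunit gene that was not called. Within F1, the catalytic subunit *Atp5b* was at 1708, 1667, 1719, 1795 and 1844 FPKM in controls and at 4422, 3879, 4256, 3957 and 3853 in mTg (1.22 ± 0.07, adjusted p = 1.9e-08). *Atp5a1*, its partner in the F1 ring, was at 1116, 1079, 1098, 1129.6 and 1109.7 FPKM in controls and at 2509.8, 2271, 2335, 2218 and 2261 in mTg (1.07 ± 0.06). Both ring subunits had narrow groups that stood far apart. The central stalk subunit *Atp5c1* read 411, 381, 402, 423 and 417 FPKM in controls and 877, 804, 887, 740.4 and 806 in mTg (1.01 ± 0.07). Lowest of the 5 was *Atp5e*, the ε subunit, with 637, 583, 693, 749 and 807 FPKM in controls and 1379, 846, 1312, 1239 and 944 in mTg (0.70 ± 0.14, adjusted p = 0.00097). Its mTg libraries were widely spread, yet none fell into the control range.

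The c subunit, which forms the rotating ring in the membrane, is coded by 3 genes for the same mature protein. *Atp5g3* (chr2:73908447-73911326) had the largest change of all 62 genes, with 664, 583, 659, 724 and 798 FPKM in controls and 2302, 1979, 2107, 1878 and 1621 in mTg (1.52 ± 0.10, adjusted p = 9.9e-08). *Atp5g1* (chr11:96068852-96075670) came next with 261, 259, 269.7, 297 and 341 FPKM in controls and 809, 704, 933, 792 and 750.1 in mTg (1.48 ± 0.09, adjusted p = 5.8e-08). Both genes were more than doubled in every mTg library relative to every control. In contrast, *Atp5g2* (chr15:102662864-102672352) was at 44.3, 46.1, 43.2, 46.4 and 47.8 FPKM in controls and at 48.8, 39.4, 57.3, 48.7 and 55.7 in mTg. The lowest *Atp5g2* value of the 10 libraries was mTg replicate 2, and the other 4 mTg libraries were above every control. Its log2 fold change was 0.12 ± 0.09 (95% interval −0.07 to 0.31, adjusted p = 0.30), and without mTg replicate 2 it was 0.20 ± 0.07 (adjusted p = 0.027). *Atp5l* was called higher at 0.42 ± 0.14 (adjusted p = 0.030) from very few reads, and the call was lost with voom on the recovered reads and when control replicates 1, 2 or 3 or mTg replicates 1 or 4 were left out (adjusted p between 0.050 and 0.075).

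**Figure D2:**
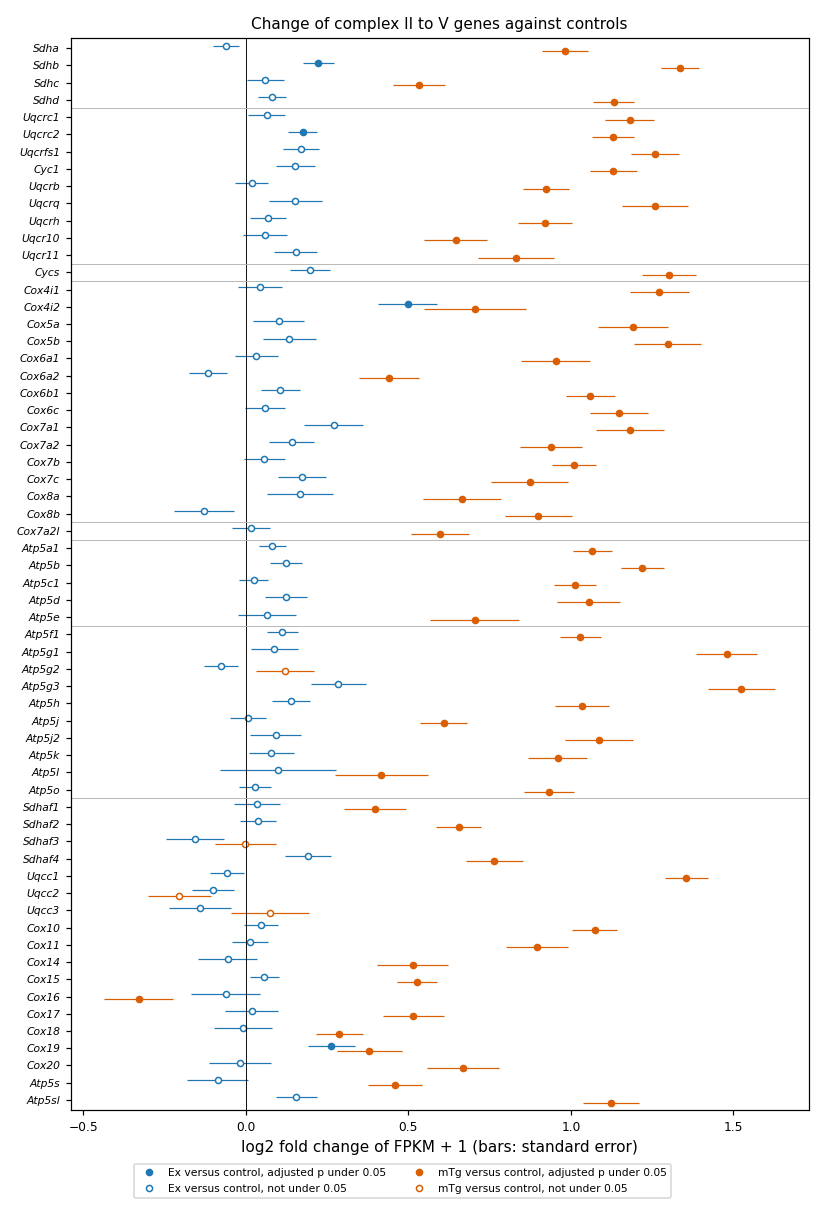
Log2 fold change of FPKM + 1 with its standard error for each of the 62 genes in Ex (blue) and mTg (orange) against the same controls, filled where the adjusted p is under 0.05. In mTg 57 genes lie to the right and *Cox16* to the left, and in Ex 4 genes are filled.

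Among the assembly and related factors, *Uqcc1*, needed for cytochrome b synthesis in complex III, rose most. It was at 62.7, 60.1, 60.7, 59.2 and 70.6 FPKM in controls and at 176, 168, 156, 152 and 158 in mTg (1.35 ± 0.07, adjusted p = 6.8e-09). Its partner in that step, *Uqcc2* (chr17:27122663-27133916), was at 236, 219, 234, 253 and 266 FPKM in controls and at 234, 162, 231, 217 and 211 in mTg. No mTg library was above the control median, with a log2 fold change of −0.21 ± 0.10 (95% interval −0.42 to 0.00, adjusted p = 0.10). *Atp5sl* rose from 19.2, 19.5, 18.4, 19.8 and 22.8 FPKM to 48.0, 36.3, 49.5, 43.8 and 46.3 (1.12 ± 0.09). It was named for its similarity to a coupling factor of ATP synthase, and GENCODE calls it *Dmac2*. The older name alone does not make it an ATP synthase factor. *Cox10*, which makes heme O for complex IV, rose by 1.07 ± 0.07, and *Cox15*, which turns heme O into heme A, by 0.53 ± 0.06. The copper proteins *Cox11* and *Cox17* rose by 0.89 ± 0.10 and 0.51 ± 0.09. Exons of *Cox11*, *Cox20* and *Sdhaf1* overlap a gene on the other strand over 48.3%, 91.1% and 69.6% of their length, and the strand setting used in counting is not known from the sources. The complex II factor *Sdhaf3* had a change of −0.00 ± 0.09 (95% interval −0.20 to 0.20) and the complex III factor *Uqcc3* one of 0.07 ± 0.12 (−0.19 to 0.34), so that neither passed the test.

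*Cox16*, an assembly factor of complex IV and the gene with the lowest level, was the one gene lower in mTg. It was at 1.34, 1.13, 1.03, 1.39 and 2.07 FPKM in controls and at 0.958, 0.682, 1.11, 0.889 and 0.799 in mTg, on 26 to 94 reads per library. One mTg library lay inside the control range, and control replicate 5 was well above the other controls. The log2 fold change was −0.33 ± 0.11 (adjusted p = 0.022), and the call was lost without mTg replicate 2 (−0.29 ± 0.11, adjusted p = 0.051). In the annotation 56.8% of its exon bases are shared with *Gm20498* on the same strand, so its reads cannot be assigned to it alone.

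Cells other than fibers also moved with mTg. Of 8 endothelial markers 7 were higher and none lower, and their summed level was 171 to 239 FPKM in mTg against 111 to 144 in controls. Of 4 markers of smooth muscle and pericytes 3 were higher (119 to 152 against 98.4 to 125 FPKM). Of 6 myofiber markers 5 were lower (42468 to 50028 against 63102 to 71755 FPKM). The 6 were *Acta1*, *Ckm*, *Des*, *Ttn*, *Myh4* and *Pvalb*, of which *Myh4* and *Pvalb* mark glycolytic muscle and none marks slow fibers. Their sum therefore cannot tell the amount of myofiber from its type. The paper reported fewer glycolytic type IIb fibers in stained gastrocnemius of mTg and Ex mice. Of 6 macrophage markers 2 were higher (17.8 to 24.9 FPKM in sum, against 13.8 to 20.9), and of 5 fibroblast markers 2 were higher and 1 lower (345 to 515 against 398 to 500.2). None of 4 adipocyte markers was called (50.8 to 203 against 52.1 to 179), and *Alas2*, the 1 erythroid marker read, was higher (1.46 to 5.19 against 0.978 to 1.92). No marker read was at 0 in any library, and the part of these shifts in the changes of the 62 genes was not tested.

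The second comparison asked how the same genes differed after voluntary running, against the same 5 control libraries that mTg was compared with. Against controls, 4 of the 62 genes were higher in Ex and none was lower, where 5.39% of all genes tested were higher and 5.02% lower. The 4 are 6.45% of the 62, close to the share of all genes. At an unadjusted p under 0.05, 16 were higher and 0 lower, where 12.5% of all genes were higher and 14.2% lower. With voom on the recovered reads 5 were called higher and 0 lower, against 5.29% and 5.3% of all genes. The median log2 fold change was 0.06 over the 62 genes and −0.01 over all genes tested, with values from −0.16 to 0.50. The groups were fully apart, Ex above controls, in 4 genes (4.92% of all genes) and in none the other way (4.69%). These were *Sdhb*, *Uqcrc2*, *Cox4i2* and *Atp5a1*, of which *Atp5a1* was not called. Among the 44 genes other than assembly factors 40 had a positive fold change and 4 a negative one. Among the 18 assembly and related factors 9 had each sign. Over all 11674 genes tested, 5639 had a positive fold change and 6035 a negative one.

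*Sdhb* in complex II was at 472, 525, 494, 463 and 500.2 FPKM in Ex, each above the highest control of 438. The log2 fold change was 0.22 ± 0.05 (95% interval 0.12 to 0.33, adjusted p = 0.013). This call was lost when the replicate number was fitted as a block (adjusted p = 0.0574). Its flavoprotein partner *Sdha* was at 387, 397, 389, 367 and 380.4 FPKM in Ex against 389 to 407 in controls. The change of *Sdha* was −0.06 ± 0.04 (−0.15 to 0.03, adjusted p = 0.36), and the anchors *Sdhc* and *Sdhd* were at 0.06 ± 0.06 and 0.08 ± 0.04, with no call.

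*Uqcrc2*, a core protein of complex III, was at 320.3, 302, 316, 325 and 337 FPKM in controls and at 350.0, 378, 374, 354 and 351 in Ex. The groups did not overlap, and the change was 0.17 ± 0.05 (0.08 to 0.27, adjusted p = 0.030). This call did not survive the loss of Ex replicates 2 or 3 or of any of control replicates 1 to 4 (adjusted p between 0.060 and 0.081). *Uqcrfs1* at 0.17 ± 0.06 (adjusted p = 0.070) and *Cyc1* at 0.15 ± 0.06 (adjusted p = 0.12) were near in size and not called, and *Cycs* was at 0.20 ± 0.06 (adjusted p = 0.065).

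In complex IV the one call was *Cox4i2* (chr2:152754173-152765037), the form of subunit 4 known from lung and from hypoxia, which in mice also marks pericytes. It was at 2.27, 2.82, 2.34, 2.93 and 2.96 FPKM in controls, at 5.19, 4.25, 3.85, 4.19 and 3.43 in Ex and at 5.34, 2.82, 6.35, 6.55 and 4.55 in mTg. Every Ex library was above every control, and mTg replicate 2 stayed inside the control range. The log2 fold change was 0.50 ± 0.09 in Ex (0.30 to 0.70, adjusted p = 0.0061), the largest of the 62 there, and 0.71 ± 0.16 in mTg (adjusted p = 0.0025). The level was low, with 26 to 69 reads per library. Beside it, 4 of 8 endothelial markers were higher in Ex and none lower (149 to 188 FPKM in sum, against 111 to 144), and of the 4 markers of smooth muscle and pericytes 1 was higher and 1 lower. Of 6 myofiber markers 1 was higher and 3 lower in Ex (56171 to 63681 FPKM in sum). Among these markers were again *Myh4* and *Pvalb* but no slow-fiber gene. No macrophage or fibroblast marker was called in Ex, and of 4 adipocyte markers 1 was lower. The part of all these markers in the changes in Ex was not tested.

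*Cox19*, an assembly factor that handles copper for complex IV, was at 32.7, 27.2, 32.1, 31.0 and 37.4 FPKM in controls and at 42.2, 36.5, 37.7, 37.7 and 38.7 in Ex. Control replicate 5 reached above Ex replicate 2, and the change was 0.26 ± 0.07 (adjusted p = 0.040). The call was lost when any 1 library other than control replicate 5 was left out (adjusted p between 0.057 and 0.090). Control replicate 5 was the highest control for many of these genes, and without it 13 of the 62 genes were called higher and 0 lower (5.99% and 5.33% of all genes), *Atp5g3*, *Cox7a1*, *Uqcrfs1*, *Cyc1* and *Cycs* among them.

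No ATP synthase gene was called in Ex. *Atp5g3* came closest, at 886, 913, 817, 727 and 822 FPKM in Ex against 583 to 798 in controls, where only Ex replicate 4 fell inside the control range (0.28 ± 0.09, adjusted p = 0.053). *Atp5b* read 1962, 1981, 1899, 1814 and 1855 FPKM in Ex (0.12 ± 0.05, 95% interval 0.01 to 0.23, adjusted p = 0.14). Every Ex library of *Atp5a1* (1148 to 1185 FPKM) was above every control (1079 to 1130), with a change of 0.08 ± 0.04 (adjusted p = 0.23). *Cox4i1* and *Cox6a2*, both abundant in complex IV, were at 0.04 ± 0.07 and −0.12 ± 0.06.

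**Figure D3:**
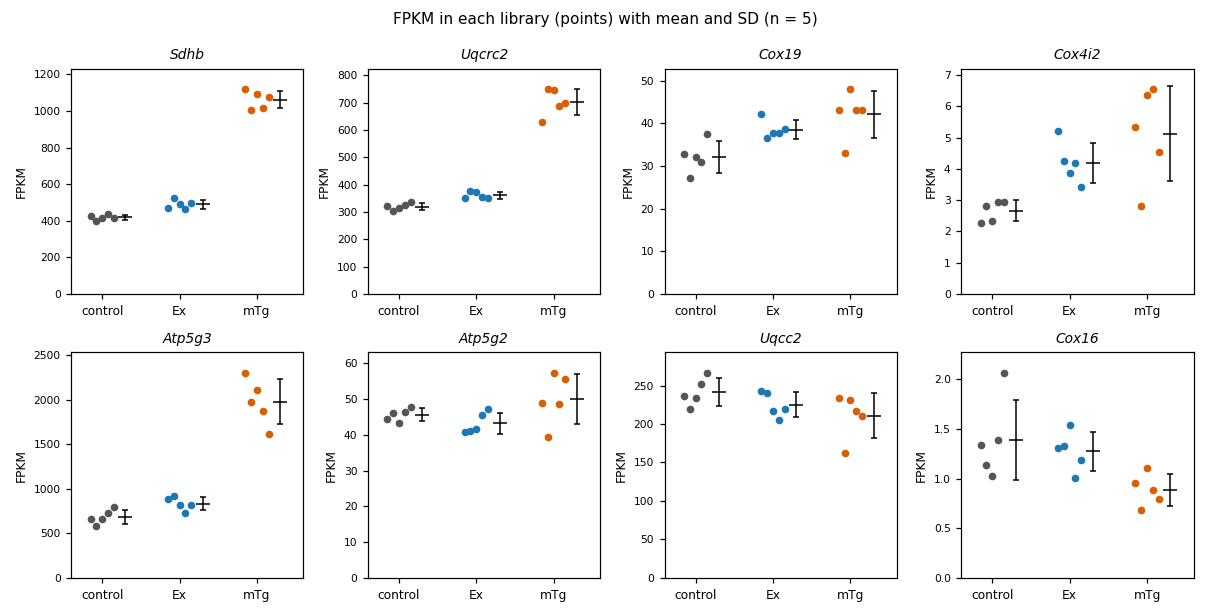
FPKM of 8 genes in each library (points), with the mean and SD (n = 5) beside each group, on axes that start at 0. *Sdhb*, *Uqcrc2*, *Cox19* and *Cox4i2* were called in Ex, *Atp5g3* had the largest rise in mTg, and *Atp5g2*, *Uqcc2* and *Cox16* were not called higher there.

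The count in Ex depended on the scale. The FPKM of the listed genes in a library summed to 465949 ± 18858 in controls and 435848 ± 13098 in Ex (SD, n = 5). Rescaling all libraries to the same total over listed genes (TPM) therefore raised Ex values relative to controls on average. On TPM 31 of the 62 genes were higher in Ex and 0 lower, where 10.5% of all genes were higher and 1.78% lower, and at an unadjusted p under 0.05 none was lower either. The split over all genes moved from 629 higher and 586 lower to 1225 and 208, and the median of all genes rose from −0.01 to 0.08. The median of the 62 genes rose from 0.06 to 0.16. *Sdhb* then changed by 0.32, *Uqcrc2* by 0.27, *Atp5b* by 0.22 and *Atp5g3* by 0.38 (adjusted p from 0.000239 to 0.0036), while *Sdha*, *Uqcc1* and *Atp5g2* turned from small negative to small positive values without a call. A scaling by the median of ratios left the 4 calls as they were. In mTg the same rescaling left 57 higher and 1 lower, where 22.8% of all genes were higher and 19.4% lower.

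**Figure D4:**
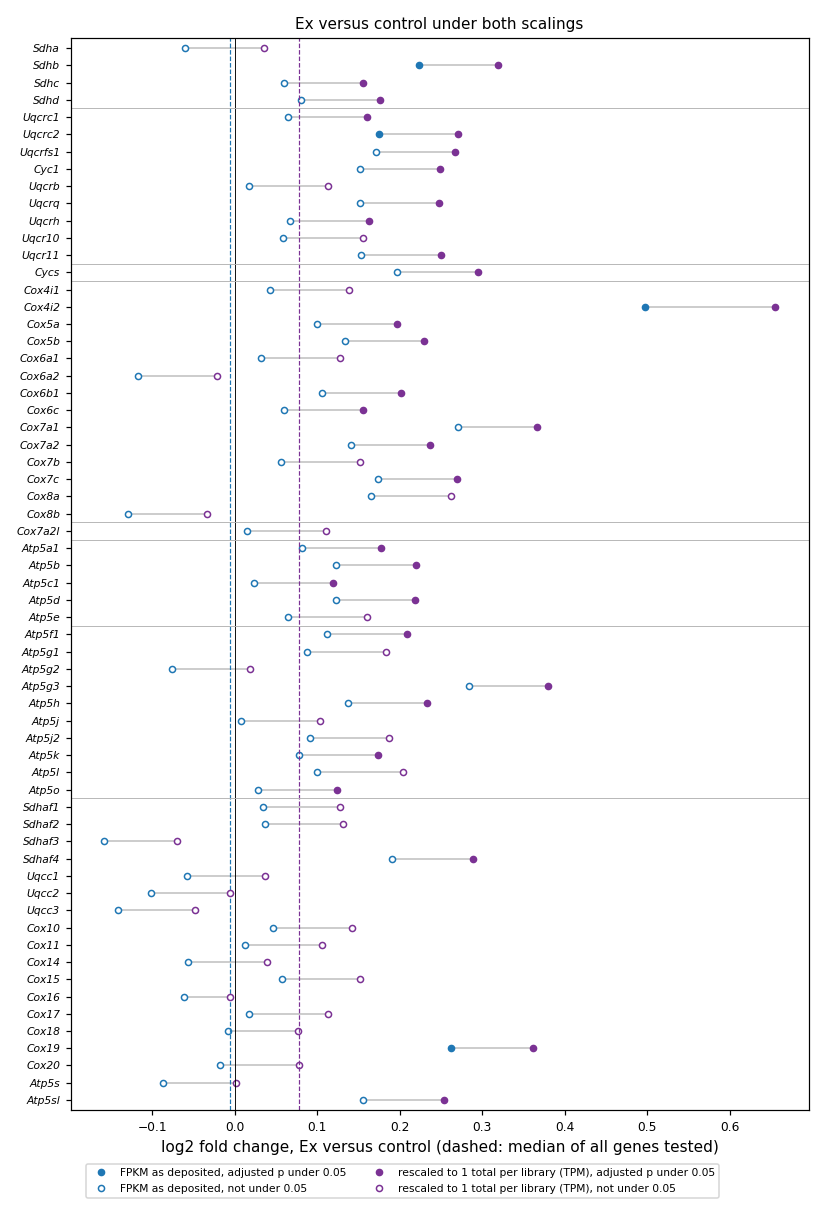
Log2 fold change of each gene in Ex against controls on FPKM as deposited (blue) and on TPM (purple), joined by a grey line and filled where the adjusted p is under 0.05, with the median of all genes tested dashed in the same color. Nearly all genes shift right together, and the filled points rise from 4 to 31.

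Subunits with alternative isoforms were compared by the share of each isoform in the summed FPKM of its set, which does not depend on the scale of a library. Exact two-sided permutation tests were run for 7 shares in 3 comparisons, adjusted over the 21 tests. The smallest p that 5 against 5 libraries can give is 0.00794, and 11 of the 21 passed an adjusted p of 0.05.

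The c subunit showed the clearest shift in makeup. *Atp5g2* made up 4.57, 5.19, 4.44, 4.35 and 4.03% of the c subunit FPKM in controls, 3.30, 3.22, 3.60, 4.29 and 4.05% in Ex and 1.54, 1.45, 1.85, 1.79 and 2.30% in mTg. The mTg shares lay below all others, and Ex and control shares overlapped. The difference from controls was −2.73 percentage points in mTg (exact permutation p = 0.00794, adjusted p = 0.024) and −0.82 in Ex (exact p = 0.024, adjusted p = 0.045). *Atp5g3* held 67.4% ± 1.07 in controls, against 70.6% ± 1.35 in Ex and 69.9% ± 2.75 for mTg (SD, n = 5), higher by 3.23 points in Ex (adjusted p = 0.037, exact permutation test) and by 2.49 in mTg (adjusted p = 0.14). *Atp5g1* fell by 2.41 points in Ex (exact permutation test, adjusted p = 0.037) from 28.1% ± 0.874 to 25.7% ± 0.973. The calls for *Atp5g1* and *Atp5g3* in Ex were lost without control replicates 2, 3 or 4, that for *Atp5g1* also without Ex replicates 2, 3 or 5, and that for *Atp5g2* in Ex without control replicates 1 to 4 or Ex replicates 1, 2, 3 or 5.

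In complex IV the isoforms moved in differing directions. *Cox6a1*, the form found in most tissues, made up 2.91, 3.10, 2.61, 2.58 and 2.78% of subunit 6a in controls and 3.54, 3.88, 4.50, 4.24 and 3.85% in mTg. Every mTg library was above every control, by 1.21 points on average (exact permutation p = 0.00794, adjusted p = 0.024), beside the muscle form *Cox6a2*, which still held most of the sum. *Cox7a2*, the common form of subunit 7a, went the other way relative to the heart and muscle form *Cox7a1*, from 21.6, 21.7, 21.1, 21.7 and 20.3% in controls to 18.7, 18.6, 18.4, 19.8 and 17.6% in mTg. Again the groups did not overlap, with a difference of −2.66 points (exact permutation p = 0.00794, adjusted p = 0.024). In Ex the share of *Cox7a2* was 18.1, 19.9, 19.9, 21.4 and 19.8% (−1.45 points, exact permutation test, adjusted p = 0.045), and the call was lost without any of control replicates 1 to 4 or Ex replicates 1, 2, 3 or 5.

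*Cox4i2* made up 0.311, 0.426, 0.320, 0.374 and 0.339% of subunit 4 in controls and 0.697, 0.540, 0.501, 0.533 and 0.431% in Ex. Each Ex library was above each control, by 0.19 points on average (exact permutation p = 0.00794, adjusted p = 0.024). In mTg the share was 0.263, 0.175, 0.313, 0.375 and 0.267%, overlapping controls (exact permutation test, adjusted p = 0.12) and below all Ex libraries (Ex higher by 0.26 points, adjusted p = 0.024). *Cox8a*, the common form of subunit 8, held 4.17% ± 0.371 in controls, against 5.12% ± 0.836 in Ex and 3.65% ± 0.729 for mTg (SD, n = 5), and none of its 3 comparisons passed (exact permutation tests, adjusted p between 0.056 and 0.21).

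**Figure D5:**
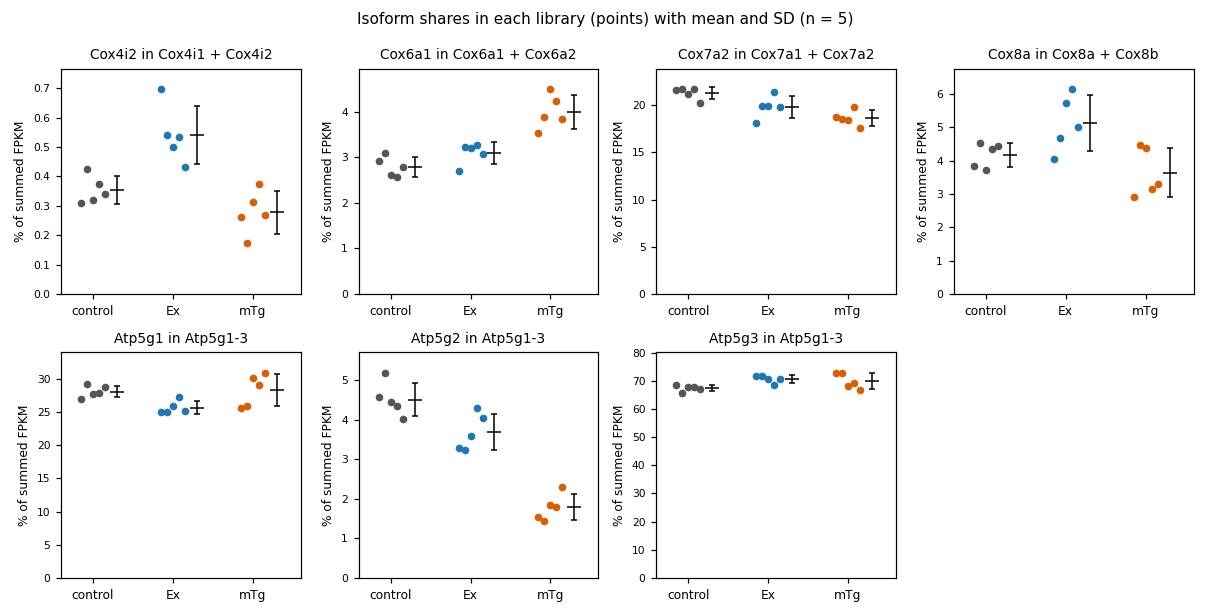
Share of each isoform in the summed FPKM of its set, in percent, for every library (points) with the mean and SD (n = 5) beside each group, on axes that start at 0. *Atp5g2* falls from between 4.03 and 5.19% in controls to between 1.45 and 2.30% in mTg, and *Cox4i2* is highest in Ex.

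The third comparison set Ex against mTg directly, so that differences between the models were tested rather than read from both lists. The deposited Ex and mTg columns had been scaled in separate runs with the controls, which differ by at most 1 constant per library, between 0.993 and 1.01. Of the 62 genes 54 were lower in Ex and 1 was higher, where 20.7% of all genes were lower and 20.7% higher, and the medians were −0.90 and 0.02. In 53 genes every Ex library was below every mTg library (14.9% of all genes) and in none above (14.2%). On TPM 53 were lower and 1 higher, where 16.3% of all genes were lower and 26% higher, and the split over all genes moved from 2414 higher and 2413 lower to 3038 and 1898. All subunits of complexes II and III were lower in Ex, with medians of −1.05 and −0.96, as were 13 of 14 in complex IV, all 5 of F1 and 8 of 10 of Fo and stalks.

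The widest gaps lay at *Uqcc1* (Ex 57.7 to 62.9 FPKM, mTg 152 to 176), with a log2 fold change of −1.41 ± 0.06 in Ex against mTg, and at *Atp5g1* (Ex 290.1 to 318 FPKM, mTg 704 to 933), with −1.39 ± 0.08. *Sdhb*, called in both models, was still lower in Ex (−1.11 ± 0.06, adjusted p = 2.05e-08), and *Uqcrc2* was at −0.96 ± 0.07. The other 2 genes called in Ex were not called here, with *Cox4i2* at −0.21 ± 0.16 (95% interval −0.55 to 0.14, adjusted p = 0.32) and *Cox19* at −0.12 ± 0.09 (−0.31 to 0.07, adjusted p = 0.31). Without mTg replicate 2, the lowest mTg library for both, they were called lower in Ex, at −0.37 ± 0.11 and −0.20 ± 0.06 (adjusted p = 0.0187 and 0.0245). *Atp5g2*, *Atp5l*, *Sdhaf3*, *Uqcc2* and *Uqcc3* were not called either. Of these, *Atp5g2* was called lower in Ex without mTg replicate 2 (−0.28 ± 0.07, adjusted p = 0.0092) and *Atp5l* without Ex replicate 2 (−0.46 ± 0.08, adjusted p = 0.0007). *Cox16* was higher in Ex, at 1.005 to 1.54 FPKM against 0.682 to 1.11 (0.27 ± 0.08, adjusted p = 0.018), and the call was lost without Ex replicate 3 (adjusted p = 0.052).

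Other genes that build these complexes but fall outside the naming rule were read from a list of 32, of which 25 were found and tested. In mTg 23 of the 25 were higher and none lower, with a median log2 fold change of 0.58, against 22.3% of all genes higher and 23.1% lower. In Ex 0 of the 25 were called in either direction, with a median of 0.04. Over all genes 5.39% were called higher in Ex and 5.02% lower, so that few calls would be looked for among 25. *Sco2*, which delivers copper to complex IV, rose most in mTg, from 1.87 ± 0.694 to 10.4 ± 1.26 FPKM (2.02 ± 0.14). The complex III factor *Ttc19* rose by 1.19 ± 0.07, *Taco1*, an activator of the translation of a mitochondrial subunit of complex IV, by 1.08 ± 0.08, and *Ndufa4*, now placed in complex IV, by 1.04 ± 0.08 to 1931 ± 196 FPKM. The ATP synthase inhibitor *Atpif1* rose by 0.75 ± 0.07. *Surf1* and *Coa3*, both needed for complex IV assembly, were the 2 not called, at 0.04 ± 0.07 and 0.13 ± 0.11.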

How the data were processed

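Polyadenylated RNA of 15 quadriceps libraries was sequenced with a stranded kit. The submitters' processing notes name STAR, mm10 and DESeq2 1.1.0. Annotation and counter were not given in the sources used here. Values are FPKM as deposited by the authors. Their tables of changed genes also hold fold changes and p-values, which were not used. Those tables served to check that the mTg columns were scaled apart from the others.

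Whole reads were recovered from the FPKM for 12529 genes (tolerance 0.01). Libraries of a group all differed by more than counting noise (4.56 to 26.9 chi-square units per gene).

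Groups came from the labels, which give no batch. Log2(FPKM + 1), on which fold changes of low genes come out too small, was fitted with limma 3.58.1 in R 4.3.3 (two-sided, with a mean-variance trend), each comparison on its own 10 libraries. P-values were adjusted by Benjamini-Hochberg over the 11674 genes whose mean reached 0.5 FPKM. The script was tested on simulated data. By rule, values per library or their range are given for genes called in Ex, isoform partners, 8 core subunits and the 2 largest and 2 smallest changes in mTg per class. Members, lists and rules were chosen with earlier results of these data known. Positions are from GENCODE M21 and promoters from RefSeq, both on GRCm38, the assembly of mm10.

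Alternatives were a pseudocount of 0.1, no filter, TPM, median-of-ratios scaling, columns on 1 scale, voom on reads, all 15 libraries in one fit, no trend, replicate numbers as a block, leaving out each library and, for shares, the log2 ratio of isoforms.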

Additional observations from a re-analysis of the deposited data

Results flagged for a closer look

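Single libraries stood apart from the other 4 of their group in 10 of 207 checks of a gene or isoform share within a group (Dixon's test at the 95% level, which flags about 1 in 20 groups by chance). In mTg these were *Sdha* in replicate 1 at 931 FPKM (others 729 to 773), *Cox7b* and *Cox8a* in replicate 3 at 768 (651 to 684) and 77.8 (49.4 to 57.4), and *Cox10* in replicate 2 at 39.5 (46.9 to 49.0). In Ex they were *Cyc1* in replicate 2 at 458 FPKM (405 to 419), *Atp5l* in replicate 2 at 3.42 (1.63 to 1.82), *Sdhaf3* in replicate 5 at 21.6 (15.3 to 17.04) and *Cox20* in replicate 1 at 43.5 (32.9 to 35.7). In controls they were *Uqcrq* and *Uqcc3* in replicate 5 at 571 FPKM (431 to 464) and 53.9 (34.2 to 39.0). No cause was tested. Without Ex replicate 5, *Sdhaf3* was the 1 of the 62 genes called lower in Ex (−0.24, adjusted p = 0.044).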

How the results depend on the processing

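For mTg against controls 56 to 58 of the 62 genes were higher, and for Ex against mTg 53 to 58 were lower in Ex, under every alternative run. The single gene on the other side became 0 without mTg replicate 2 (mTg lower, 0 to 1 over left-out libraries) and without Ex replicate 3 (higher in Ex, 0 to 1). For Ex against controls the 4 higher genes became 31 on TPM, 2 with all 15 libraries in one fit and 2 to 13 over left-out libraries, and 0 to 1 were lower. Whether replicate numbers pair the libraries is not known. For Ex and controls, deviations from the group mean correlated at −0.081 to 0.19 between same-numbered libraries. Libraries of different number correlated at −0.29 to 0.25, and so few pairs cannot exclude a pairing or shared batch. With the number as a block the 4 became 2, where the calls of *Sdhb* and *Uqcrc2* were lost (adjusted p = 0.0574 and 0.0942), and 0 of 21 isoform shares passed, where the block allows no p under 0.0625. The 11 shares that passed were 7 to 13 over left-out libraries. Of the genes given by library, the values that changed sign were never called. On TPM *Sdha*, *Atp5g2* and *Uqcc1* in Ex were at 0.035, 0.018 and 0.037. Over left-out libraries Ex values ran from −0.0039 to 0.10 for *Cox4i1*, −0.0090 to 0.060 for *Cox7a2l*, −0.040 to 0.24 for *Atp5l* and −0.12 to 0.032 for *Cox16*, and the shares of *Atp5g1* in mTg against controls from −0.41 to 0.91 points and of *Atp5g3* in Ex against mTg from −0.039 to 1.47. Where no construction shows it, the cause was not tested. At 9 to 94 reads per library, *Atp5l*, *Cox16* and *Cox4i2* are limited by depth. The intervals cover the spread between libraries only.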
